A study of Mus musculus with 4 samples.

Results

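Long noncoding RNAs that stay in the nucleus were measured by single-nucleus RNA-seq in cerebral cortex from mice termed GCLC-KO, and 7 of them, picked by gene symbol, are described here: Neat1, Malat1, Meg3, Miat, Snhg11, Rian and Mirg. They are 7 of the 32285 genes in the count matrices, and they took 10.7%, 10.2%, 9.42% and 8.73% of all UMIs in the 4 libraries, a UMI being a barcode that counts a captured RNA molecule. Neat1 was picked because its level was higher at 6 months, so its difference between the ages is described without a test. All the animals carried floxed Gclc (strain C57BL/6NTac-Gclctm1a(EUCOMM)Wtsi/WtsiCnbc) together with CaMKII-Cre, a transgene whose promoter drives Cre mainly in forebrain excitatory neurons, and the genotype is labelled Gclc-KO. Gclc encodes the catalytic subunit of the enzyme that makes the first step of glutathione synthesis. Nuclei came from the cortical region with rod-shaped microglia and were sorted by DAPI, and each age had 2 libraries, each from 1 mouse and 1 of each labelled batch. Libraries are named by age and replicate, so that 6M-1 is replicate 1 at 6 months. Where 4 values are listed, the 3-month libraries come first and replicate 1 stands before replicate 2. There was no wild-type library, so no value below separates the knockout from normal ageing. A level in a class summed over nuclei cannot tell fewer expressing nuclei from less RNA in each.

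Neat1 is the scaffold of paraspeckles, nuclear bodies in which the RNA is bound by proteins such as Nono and Sfpq, and it is known to increase in many stressed cells. Malat1, its neighbour on the chromosome, gathers in nuclear speckles, where splicing factors are stored, and is among the most abundant RNAs of the nucleus. Meg3, Rian and Mirg are made from the maternal chromosome of the imprinted Dlk1-Dio3 region and carry small nucleolar RNAs and miRNAs within their transcripts. Miat is a nuclear RNA of neurons, and Snhg11 hosts small nucleolar RNAs.

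By their positions in GENCODE M21 (GRCm38, the assembly also called mm10), Malat1 lies at chr19:5795690-5802672 and Neat1 at chr19:5824708-5845478, both on the minus strand and 22.0 kb apart. Every base of either gene is annotated as exon of a long intergenic noncoding RNA. Meg3 (chr12:109541001-109571726), Rian (chr12:109603940-109661716) and Mirg (chr12:109729764-109749460) follow each other on the plus strand with gaps of 32.2 and 68.0 kb. Exons cover 58.9% of Meg3, 31.6% of Rian and 37.0% of Mirg, and the rest is intron. Miat is at chr5:112213228-112229395 on the minus strand, where it overlaps Gm26953, a noncoding gene of the opposite strand that was counted separately. Snhg11 is at chr2:158375638-158386145 on the plus strand, and GENCODE M21 types it as protein coding. The counts are given per gene and not per transcript, so the short and the long form of Neat1 were not distinguished. Paraspeckles were not measured, and the level of Neat1 is not read as a measure of them.

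The promoter of Meg3 is shown because Meg3, Rian and Mirg followed each other over the cell classes (below), and Meg3 stands first in their row. RefSeq (GRCm38.p6) gives 300 bases, 250 before the start and 50 after it, at chr12:109540746-109541045 on the plus strand. Capitals mark a cAMP response element (TGACGTCA) that begins 57 bases before the start, and 2 overlapping matches of the TATA box (TATAAA), 1 on each strand, that begin 29 and 25 bases before it:
Meg3 promoter: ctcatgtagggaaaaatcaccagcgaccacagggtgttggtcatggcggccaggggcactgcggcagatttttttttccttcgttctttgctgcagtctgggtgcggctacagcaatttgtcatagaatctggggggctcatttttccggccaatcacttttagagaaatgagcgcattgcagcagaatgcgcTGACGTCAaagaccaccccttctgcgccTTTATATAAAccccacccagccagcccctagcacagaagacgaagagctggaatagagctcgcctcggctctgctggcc
Searched on both strands, the cAMP response element was present in 1.79% and the TATA box in 13.6% of all 32851 promoter windows of that length. Neither was in the RefSeq windows of Malat1, Miat, Snhg11, Rian or Mirg, nor in a second window of Meg3. A CCAAT box (CCAAT, in 37.4% of windows) was found in Meg3 and Mirg, and an Sp1 site (GGGCGG, in 35.7%) in Miat. The RefSeq window of Mirg (chr12:109734731-109735030) lies inside the GENCODE span of the gene and not at its start. Neat1 had no entry.

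Mirg is a host of miRNAs. Its span holds 26 mature miRNAs in RefSeq, against 6 in Rian and 3 in Meg3. The following mature sequences, whose precursors are part of the Mirg or Meg3 transcript, are shown with the seed (bases 2 to 8) in capitals. The first 2 share a seed, and no other seed was shared among the miRNAs within the 3 hosts. The protocol captured long RNAs with a poly(A) stretch, so the miRNAs themselves were not measured:
mmu-miR-453 (Mirg, chr12:109735669-109735692, plus strand): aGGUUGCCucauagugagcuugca
mmu-miR-496a-5p (Mirg, chr12:109739132-109739152, plus strand): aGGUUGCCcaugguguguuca
mmu-miR-134-5p (Mirg, chr12:109734145-109734166, plus strand): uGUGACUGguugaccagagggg
mmu-miR-410-3p (Mirg, chr12:109743764-109743784, plus strand): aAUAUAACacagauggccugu
mmu-miR-770-5p (Meg3, chr12:109563710-109563731, plus strand): aGCACCACgugucugggccacg

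After the limits of the study (at most 7000 detected genes and 1% mitochondrial UMIs), 30515 of 30784 nuclei remained, with 59262228 to 65894316 UMIs a library. Of them, 22693 were placed by marker genes in 6 classes, called excitatory-like and inhibitory-like neurons, oligodendrocyte-like, oligodendrocyte precursor (OPC)-like, astrocyte-like and microglia-like nuclei, and named below without the suffix. In every class and library the summed markers of the class were above 1000 CPM (UMIs per 1000000 UMIs of the class). The same lists placed the nuclei, so these sums are no independent check of the classes. OPCs also held the inhibitory list at 1508 to 1637 CPM, and astrocytes a list of striatal spiny neurons at 408 to 2219 CPM. The spiny list was not particular to astrocytes, with 868 to 1765 CPM in excitatory and 1088 to 1750 CPM in inhibitory neurons. The part of either list in the values of any class was not tested. Each class held at least 79 nuclei a library except astrocytes, with 28 to 59, so values in astrocytes rest on few nuclei. Nuclei that held markers of more than 1 class were kept apart as mixed. They made up 9.57% and 12.2% of nuclei at 3 months and 18.7% and 18.6% at 6 months. Between 12 and 19 cell barcodes were shared by any pair of libraries, at most 0.274% of the smaller library. Gclc was measured at 34.0 to 42.4 CPM in excitatory neurons of every library, and without a wild-type library the deletion could not be checked.

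Neat1 was highest in oligodendrocytes, followed by astrocytes and microglia. Over the 4 libraries its mean level was 2421 ± 550 CPM (SD, n = 4) in oligodendrocytes, 408 ± 57.4 CPM in astrocytes and 183 ± 53.1 CPM in microglia. It was 24.8 ± 9.38 CPM in OPCs, 8.89 ± 1.44 CPM in excitatory and 5.73 ± 3.08 CPM in inhibitory neurons, so that the highest class was 422 times the lowest. Oligodendrocytes, the myelinating cells, were highest in each library.

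The members took no part in placing the nuclei, so their levels could be compared between classes, by the quasi-likelihood test of edgeR with the mouse as a block and p-values adjusted across the genes tested by Benjamini-Hochberg. The fit scales class sums by TMM (trimmed mean of M-values), so a fitted difference can depart from the ratio of CPM. On its scale the median of all genes was 0.19 to 0.32 lower in astrocytes than in the other classes (log2), and within 0.09 of 0 for the other pairs. Of the 15 pairs of classes, all 15 differed for Neat1, where 50% of all genes and pairs tested passed. Each neighbour in the order differed too. Oligodendrocytes were above astrocytes by 2.84 ± 0.18 on the log2 scale (SE, adjusted p = 1.19e-15), and astrocytes above microglia by 1.30 ± 0.20 (adjusted p = 1.48e-06). Microglia were above OPCs by 2.61 ± 0.28 (adjusted p = 4.59e-10). OPCs were above excitatory neurons by 1.18 ± 0.35 (adjusted p = 0.0057), a call that was lost without 6M-1, at 0.93 (adjusted p = 0.0747). OPCs rested on 4 to 14 Neat1 UMIs a library and held 10.8, 5.13, 13.7 and 9.64 of them per 100 UMIs of oligodendrocyte transcripts, within or below the 9.09 to 16.1 in oligodendrocytes. The part of oligodendrocyte RNA in the level of OPCs was not tested. Excitatory were above inhibitory neurons by 0.90 ± 0.21 (adjusted p = 0.000437).

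**Figure D1:**
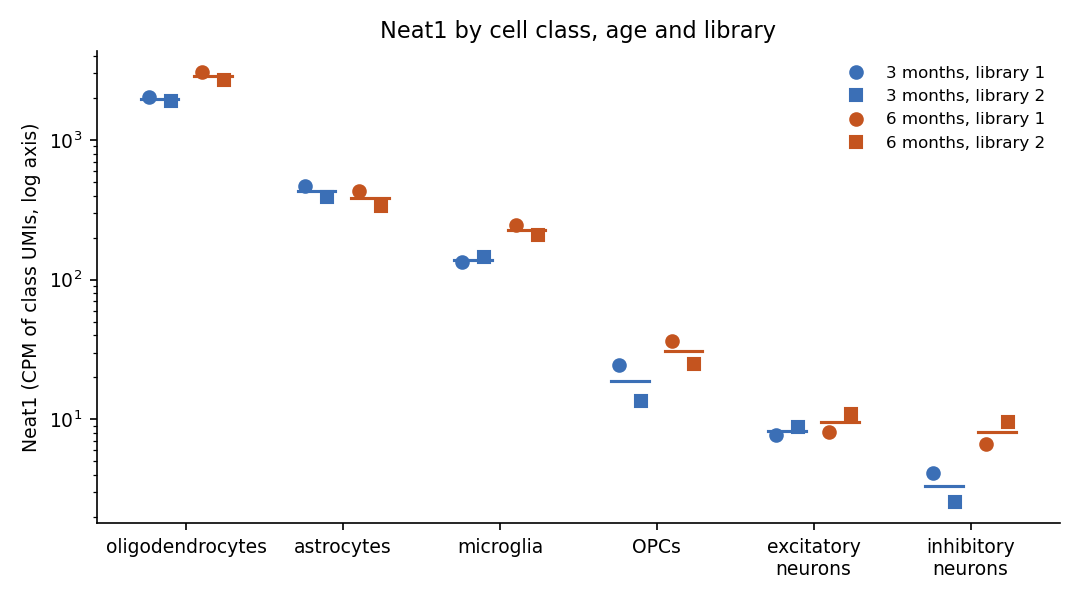
Neat1 in CPM of the UMIs of each class (log axis) in the 4 libraries, 3 months in blue and 6 months in orange, with circles for replicate 1, squares for replicate 2 and bars for the mean of an age. Oligodendrocytes lie between 1893 and 3055 CPM, above every other class, and at 6 months both libraries are higher than at 3 months in oligodendrocytes, microglia, OPCs and inhibitory neurons.

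The shares of nuclei with a Neat1 UMI were compared with each nucleus thinned to 1000 UMIs. They were 72.7%, 72.1%, 88.0% and 85.0% of oligodendrocytes, leaving out 12 to 126 shallower nuclei a library. In microglia they were 11.1%, 13.6%, 19.6% and 17.4%, leaving out 11 to 85. Astrocytes had 29.4%, 29.3%, 39.3% and 17.1%, and OPCs 2.53% to 3.16%. The order of the levels was not kept in every library, since in 6M-2 astrocytes and microglia were nearly level, and in 6M-1 inhibitory neurons (1.44%) were above excitatory neurons (0.985%). In excitatory neurons 0.644% to 1.27% of thinned nuclei had a Neat1 UMI, and in inhibitory neurons 0.274% to 1.44%. Unthinned, the shares were 78.9% to 94.6% of oligodendrocytes, at median depths of 1647 to 2827 UMIs, and 5.60% to 9.47% of excitatory neurons, at 7995 to 11734 UMIs. Free RNA was not measured, and neuronal shares this low are not read as expression.

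In oligodendrocytes, Neat1 was measured at 2035 and 1893 CPM at 3 months and at 3055 and 2700 CPM at 6 months. Both older libraries were above both younger ones, with means of 1964 ± 100.5 and 2878 ± 250.9 CPM (SD, n = 2), a ratio of 1.47. Within batch 1 the ratio was 1.5 and within batch 2 it was 1.43. The groups did not overlap in the higher direction for 25% of all genes in oligodendrocytes, and since Neat1 was picked for this contrast nothing is read from it. Here and below, shares of all genes without overlap are over genes of at least 5 CPM on average in the class, 11365 in oligodendrocytes.

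The distribution over oligodendrocyte nuclei was shifted. The median nucleus held 18.5 and 15.9 Neat1 UMIs per 10000 UMIs at 3 months, and 28.8 and 24.95 at 6 months. The lower quartile was 7.28 and 5.66 in the younger libraries and 16.1 and 13.3 in the older ones. Nuclei with no Neat1 UMI made up 12.2% and 21.1% at 3 months, and 5.42% and 5.58% at 6 months.

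C4b encodes complement component 4, a gene known to be induced in reactive oligodendrocytes, and was looked at after earlier results of these data were known. Oligodendrocytes with a C4b UMI were 6.79% and 3.59% of the class at 3 months and 34.3% and 42.5% at 6 months. In those nuclei Neat1 was at 2834, 2733, 3716 and 3118 CPM. In oligodendrocytes without a C4b UMI it was at 1975, 1861, 2701 and 2360 CPM. Nuclei with C4b were higher in each of the 4 libraries, and the age difference was present on either side of the split. Median depths with and without C4b were 2809 and 2831 UMIs in 3M-1 and 1648 and 1646 in 3M-2. Nuclei with C4b were deeper in 6M-1 (2081 against 1958) and in 6M-2 (2574 against 2183), and the part of depth was not tested.

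**Figure D2:**
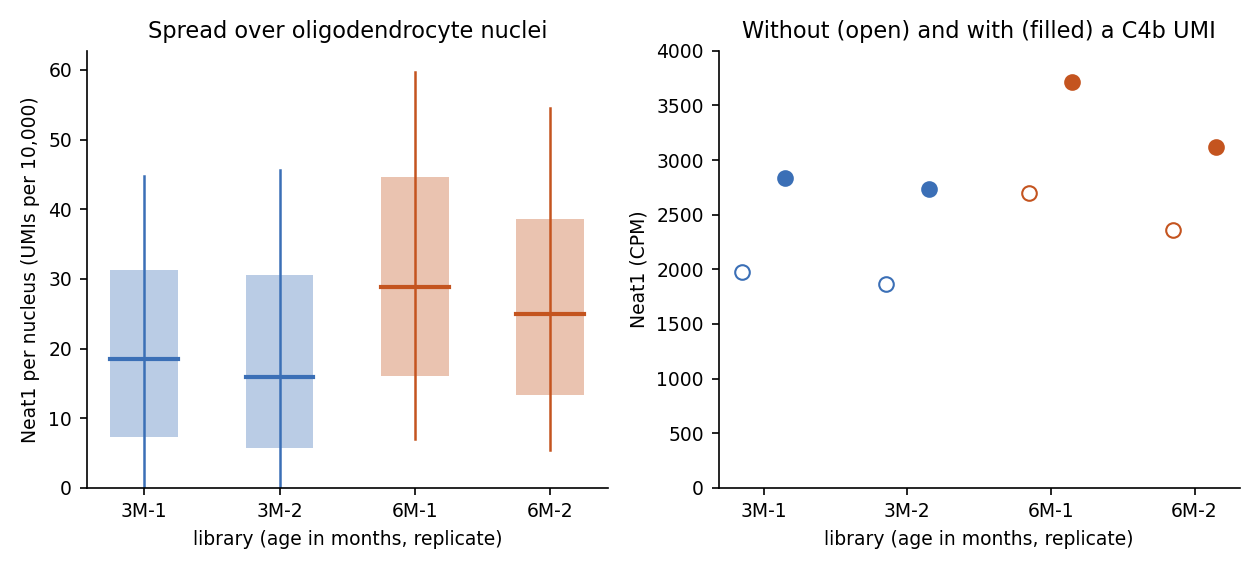
Left, Neat1 UMIs per 10000 UMIs over oligodendrocyte nuclei of each library, where the horizontal line is the median, the box the quartiles and the vertical line the 10th to 90th percentile. Right, Neat1 in CPM over oligodendrocytes without (open) and with (filled) a C4b UMI, which lie at 1861 to 2701 and 2733 to 3716 CPM.

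Oligodendrocyte transcripts themselves (a list of 10 such as Mbp, Mobp and Mog, which encode myelin proteins) had a lower sum at 6 months in this class. It was 20238 and 20819 CPM at 3 months and 18994 and 18256 CPM at 6 months, without overlap. Of the 10, none passed the test between the ages by edgeR or DESeq2, and 1 had an unadjusted p under 0.05. All 10 had a log2 difference below 0, with a median of −0.23, against 0.01 for all genes. Relative to 100 of these UMIs, oligodendrocytes held 10.1 and 9.09 Neat1 UMIs at 3 months and 16.1 and 14.8 at 6 months.

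In microglia, the immune cells of the brain, Neat1 was measured at 134 and 144 CPM at 3 months and at 246 and 209 CPM at 6 months. The older libraries were again both above the younger ones, with a ratio of 1.63, or 1.83 in batch 1 and 1.45 in batch 2. Among all genes in microglia, 21.1% had such non-overlapping higher values. The sum of oligodendrocyte transcripts in microglia also was higher at 6 months, at 182, 198, 243 and 295 CPM.

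Neat1 was next set against oligodendrocyte RNA in the same nuclei. Microglia held 73.7, 73.0, 101 and 70.8 Neat1 UMIs per 100 UMIs of oligodendrocyte transcripts, which is above the 9.09 to 16.1 in oligodendrocytes. In microglia with no oligodendrocyte UMI, Neat1 was at 129 and 177 CPM at 3 months and at 251 and 188 CPM at 6 months. The groups stayed apart there, but the share of all genes apart was not taken for these nuclei. The ratio was 1.94 in batch 1 and 1.06 in batch 2, and the log2 ratio of the means went from 0.71 to 0.52. Mixed nuclei, which were in no class, held 10.5, 8.99, 15.7 and 14.3 Neat1 UMIs per 100 oligodendrocyte UMIs, close to the values of the oligodendrocytes of the same libraries.

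Disease-associated microglia (DAM) switch on genes of lipid handling and phagocytosis. A microglial nucleus was gated as DAM where it had UMIs of at least 2 of the DAM markers Itgax, Cst7, Lpl, Spp1, Axl, Csf1, Igf1, Gpnmb, Lilrb4a, Myo1e and Fam20c. DAM-gated nuclei numbered 101, 52, 212 and 145, and other microglia 362, 319, 491 and 412. Neat1 in DAM-gated nuclei was at 265, 376, 294 and 291 CPM. Other microglia were at 88.2, 90.1, 214 and 174 CPM. DAM-gated nuclei were higher in 4 of 4 mice, by 1.04 ± 0.19 on the log2 scale (edgeR with the mouse as a block, adjusted p = 0.00161), where 3.56% of all genes were higher and 2.44% lower, 6.0% in all. The study lists Neat1 among genes of this state in mice of this series at 3 months, so the direction is not independent evidence. Median depth was 2053 to 2697 UMIs in DAM-gated nuclei and 1331 to 2119 in the others. The DAM-gated median was higher in each library, and the part of depth in the difference was not tested. Nuclei with no oligodendrocyte UMI numbered 64, 29, 124 and 73 among the DAM-gated and 259, 250, 338 and 238 among the others. The gate markers Csf1 and Myo1e were also found in oligodendrocytes (log2 difference, excitatory minus oligodendrocyte, −4.74 and −2.59). How far oligodendrocyte RNA adds to the difference was not tested.

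In other microglia the ages were apart, whereas in DAM-gated nuclei they overlapped. The share of all genes apart was not taken for either part of the microglia, so nothing is read from this contrast. Outside the gate the ratio of 6 to 3 months was 2.18, with 2.43 in batch 1 and 1.93 in batch 2. Nuclei with no DAM marker had 77.5 and 95.1 CPM at 3 months and 195 and 170 CPM at 6 months. With 3 or more markers the values were 294, 349, 335 and 349 CPM. The ratio of DAM-gated to other nuclei was 3.00 and 4.18 at 3 months and 1.37 and 1.68 at 6 months. Since Neat1 was picked for its rise with age, this difference in ratios was not tested.

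**Figure D3:**
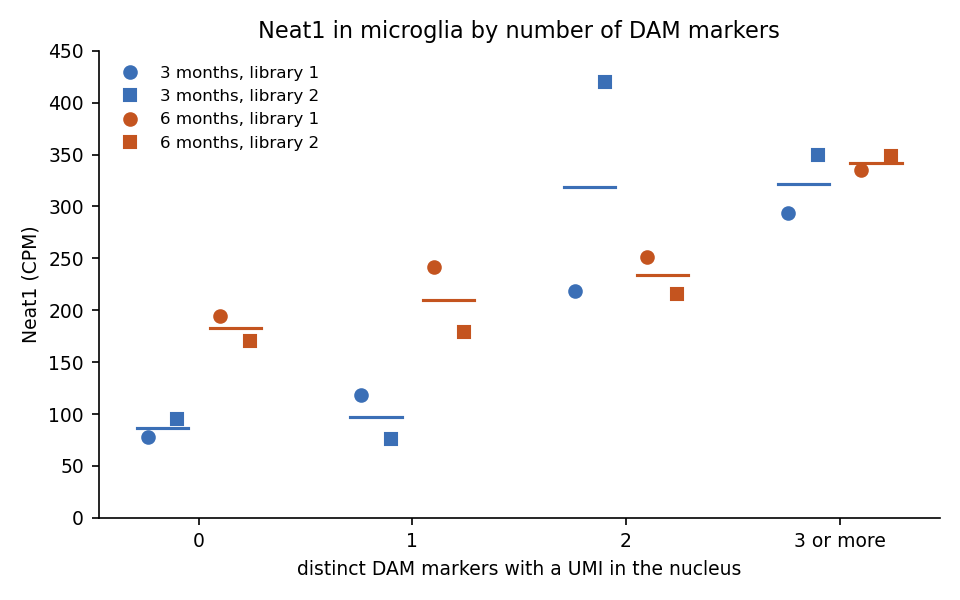
Neat1 in CPM over microglia of each library, by the number of distinct DAM markers with a UMI in the nucleus; colours, shapes and bars as in the plot by class. At 0 markers the 3-month libraries lie at 77.5 and 95.1 CPM and the 6-month libraries at 195 and 170 CPM, and at 3 or more markers all 4 lie between 294 and 349 CPM.

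Malat1 was lower in DAM-gated nuclei, in 4 of 4 mice. It made up 4.94%, 5.43%, 5.56% and 5.73% of their UMIs and 5.98%, 6.51%, 6.09% and 5.98% of those of other microglia. The log2 difference was −0.20 (SE 0.04, adjusted p = 0.00392), a call lost with DESeq2 (adjusted p = 0.65), without the block (0.468), without 3M-1 (0.0535) and without 3M-2 (0.122). The remaining 5 members did not pass between DAM-gated and other microglia, with adjusted p from 0.234 to 0.862.

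In astrocytes and excitatory neurons the ages overlapped for Neat1. In astrocytes it was at 471 and 390 CPM at 3 months and 432 and 337 CPM at 6 months. Excitatory neurons had 7.71, 8.81, 8.09 and 10.9 CPM. Inhibitory neurons had 4.12 and 2.58 CPM at 3 months and 6.62 and 9.61 CPM at 6 months, and OPCs 24.5, 13.5, 36.4 and 24.9 CPM. In both the groups were apart, on 13 to 49 and 4 to 14 UMIs a library, against 14.5% and 16.3% of all genes. Excitatory neurons held 7.22 to 8.26 and inhibitory neurons 4.09 to 12.3 Neat1 UMIs per 100 oligodendrocyte UMIs, within or below the range of oligodendrocytes. The sum of oligodendrocyte transcripts in excitatory neurons was mostly Mbp, with 81.8, 76.6, 70.5 and 89.3 of 107, 107, 106 and 138 CPM. In oligodendrocytes Mbp was at 4376 to 5277 of 18256 to 20819 CPM, so the ratios are not on a like base. The part of oligodendrocyte RNA in the neuronal levels was not tested. Without nuclei holding an oligodendrocyte transcript, excitatory neurons had 7.0, 8.70, 8.52 and 13.6 CPM. Inhibitory neurons had 4.915, 2.22, 7.145 and 11.9 CPM there, and OPCs 23.5, 22.85, 46.7 and 23.8 CPM. The ages stayed apart in inhibitory neurons and OPCs, on 7 to 29 and 3 to 7 Neat1 UMIs a library. For such nuclei the share of all genes apart was not taken, so nothing is read from it.

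The 5 genes most like Neat1 over the 24 sums of 6 classes and 4 libraries were Cdk19, Ttyh2, Ppfibp2, Baz2b and Stxbp3. Pearson correlations of log2(CPM + 1) were 0.969, 0.969, 0.964, 0.958 and 0.946 among 13789 genes of at least 10 CPM in a class. The sums of a class come from the same 4 libraries and the contrast is mainly that between classes, so these values are descriptive. Cdk19, a kinase of the Mediator complex, had mean levels of 962 CPM in oligodendrocytes, 309 in astrocytes, 289 in microglia and 50.3 in excitatory neurons. Ttyh2, a membrane channel protein, had 359, 71.7, 25.7 and 3.30 CPM in the same classes.

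Paraspeckle proteins were counted as the partners of Neat1, from a list of 18. Between the ages none passed in any class by edgeR or DESeq2, and 3 of 102 tests had an unadjusted p under 0.05. In oligodendrocytes 13 of 18 had a log2 difference below 0, with a median of −0.16, against 0.01 for all genes. This was not particular to that class, with 13 of 18 in excitatory neurons, 14 in inhibitory neurons and 11 in microglia. OPCs had 9 of 17 and astrocytes 6 of 13 below 0. Between classes, 10 of 18 were higher in oligodendrocytes than in excitatory neurons, 1 was lower and 7 did not pass, where 37.4% and 36.8% of all genes were higher and lower. Rbmx, an RNA-binding splicing protein, was higher by 1.13 on the log2 scale (SE 0.12, adjusted p = 2.96e-10) and Hnrnpk, which binds and processes nuclear RNA, by 0.71 (SE 0.08, adjusted p = 2.82e-09). Smarca4, the chromatin remodelling ATPase, was lower in oligodendrocytes by 0.62 (SE 0.09, adjusted p = 2.18e-07). In microglia, 8 of 18 were higher than in excitatory neurons, 1 was lower and 9 did not pass, with 37.1% and 38.1% of all genes as background. There Nono, the core paraspeckle protein, was higher by 1.03 (SE 0.11, adjusted p = 7.29e-11). The median log2 differences, excitatory minus oligodendrocyte and excitatory minus microglia, were −0.24 and −0.14.

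Malat1 was found at a high level in all classes. Its mean level was highest in oligodendrocytes (134814 ± 21941 CPM) and astrocytes (133451 ± 12249 CPM), whose difference of 0.33 ± 0.14 on the log2 scale missed the threshold (adjusted p = 0.078). The ratio of their CPM was 0.02 on the log2 scale. At 3 months oligodendrocytes were the higher of both and at 6 months astrocytes. Excitatory neurons followed at 84386 ± 8355 CPM, below astrocytes by 0.22 ± 0.14, which did not pass (adjusted p = 0.247), where the ratio of CPM was 0.66 (log2). Excitatory neurons were above OPCs by 0.62 ± 0.14 (adjusted p = 0.000534). Microglia were lowest at 59498 ± 2523 CPM, below inhibitory neurons by 0.44 ± 0.14 (adjusted p = 0.00666), a call lost without 3M-2 (adjusted p = 0.0514). The ratio of CPM was 0.12 there and 0.29 between excitatory neurons and OPCs (log2), so the sizes of the Malat1 differences depend on the scaling. The highest class was 2.27 times the lowest, the narrowest range of the 7.

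At 6 months Malat1 was lower in 5 of the 6 classes, with no overlap between the ages. In oligodendrocytes it made up 16.0% and 14.6% of UMIs at 3 months and 11.9% and 11.4% at 6 months. In astrocytes the shares were 14.8% and 13.9% against 12.3% and 12.4%. Excitatory neurons had 9.22% and 8.87% against 8.35% and 7.31%. Inhibitory neurons had 6.87% and 7.0% against 6.21% and 5.75%, and OPCs 7.01% and 7.80% against 6.58% and 6.18%. In microglia the ages overlapped, at 5.71%, 6.31%, 5.88% and 5.90%. Among all genes, values lower at 6 months without overlap made up 12.5% in oligodendrocytes, 14.5% in astrocytes, 21.2% in excitatory neurons, 18.4% in inhibitory neurons and 16.9% in OPCs.

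**Figure D4:**
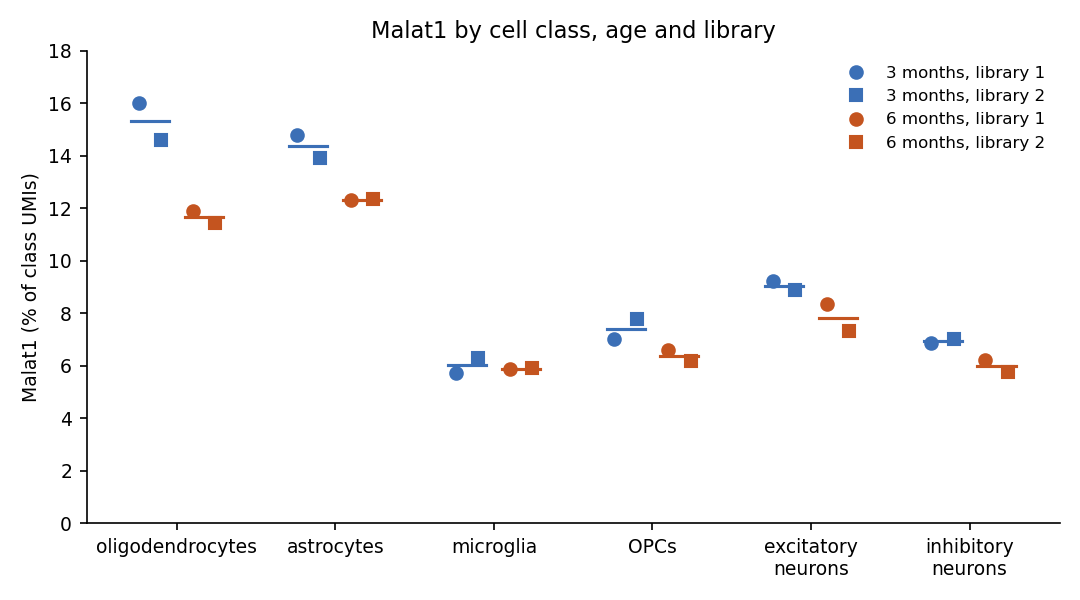
Malat1 as a percentage of the UMIs of each class, with colours, shapes and bars as in the plot of Neat1 by class. The 6-month libraries are below the 3-month libraries in every class but microglia, and the largest gap is in oligodendrocytes, from 16.0% and 14.6% to 11.9% and 11.4%.

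Only the astrocyte difference of Malat1 passed edgeR's test, which compared 2 libraries with 2 and adjusted over all genes. Its log2 difference was −0.26 (SE 0.04, adjusted p = 0.0247), where 0.0675% of the 2964 genes tested in astrocytes passed. In oligodendrocytes Malat1 fell short of the threshold, at −0.47 ± 0.17 (adjusted p = 0.507), where 0.106% of genes passed. With the batch number as a block, which is how the labels pair the libraries, the oligodendrocyte difference (−0.47, adjusted p = 0.00036) and that in OPCs (−0.20, adjusted p = 0.00932) passed, where 0.831% and 0.138% of genes did, and the astrocyte difference was lost (adjusted p = 0.75, where 0.0337% did). The astrocyte call was also lost with nuclei placed by clusters (adjusted p = 0.745), without Scrublet doublets (0.0893), with DESeq2 (1.00), without a filter on low counts (0.925), without 6M-1 (0.995) and without 6M-2 (0.834). In the other classes the fitted differences were −0.23 ± 0.11 in excitatory neurons, −0.20 ± 0.08 in inhibitory neurons and −0.06 ± 0.17 in microglia, with adjusted p from 0.887 to 0.989. Of all genes, 0.124% passed in microglia and none in either neuronal class or OPCs by edgeR, where 1053, 533 and 354 had an unadjusted p under 0.05 and DESeq2 called 32, 2 and 0. With the block 0.00528%, 0.0134% and 0.515% of genes passed in excitatory neurons, inhibitory neurons and microglia. A test of age by class, which asks whether the age difference varies between classes, gave an adjusted p of 1.00 for Malat1.

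Nuclear speckle proteins, the protein partners of the compartment where Malat1 gathers, were read from a list of 14. None passed between the ages in any class by edgeR or DESeq2, with 6 of 82 tests at an unadjusted p under 0.05. In excitatory neurons 13 of 14 had a log2 difference below 0, with a median of −0.11, against −0.001 for all genes. Oligodendrocytes had 11, inhibitory neurons 10, OPCs 7 and microglia 6 of 14 below 0, and astrocytes 5 of 12. Between oligodendrocytes and excitatory neurons, 9 of 14 were higher in oligodendrocytes, 1 was lower and 4 did not pass, where 37.4% of all genes were higher and 36.8% lower. Srsf2 and Srsf3, splicing factors of the SR family, were higher in oligodendrocytes by 1.51 (SE 0.08, adjusted p = 1.32e-18) and 1.32 (SE 0.09, adjusted p = 2.27e-15) on the log2 scale.

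Meg3, Rian, Mirg and Snhg11 were RNAs of neurons. Each was highest in inhibitory neurons in all 4 libraries, with excitatory neurons next. Meg3 was at 12273 ± 1704 CPM in inhibitory and 8047 ± 680 CPM in excitatory neurons, and at 388 to 973 CPM on average in the 4 glial classes. Rian was at 828 ± 7.56 and 585 ± 15.6 CPM, and at 45.2 to 82.9 CPM in glia. Mirg was at 186 ± 20.7 and 117 ± 15.4 CPM, and at 6.36 to 23.9 CPM in glia. Snhg11 was at 8328 ± 1428 and 5576 ± 869 CPM, and at 474 to 869 CPM in glia.

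For Meg3, Snhg11, Rian and Mirg, the fitted differences between the neuronal classes were below the ratios of CPM. Inhibitory neurons were above excitatory neurons by 0.39 ± 0.13 on the log2 scale for Meg3 (adjusted p = 0.014), by 0.35 ± 0.13 for Snhg11 (adjusted p = 0.0267) and by 0.45 ± 0.08 for Mirg (adjusted p = 1.09e-05). Rian, at 0.28 ± 0.12, missed the threshold (adjusted p = 0.0598), although its CPM did not overlap between the classes. The ratios of CPM were 0.61 for Meg3, 0.58 for Snhg11, 0.67 for Mirg and 0.50 for Rian (log2), and were not tested. The calls of Meg3 and Snhg11 were lost without 3M-2, without 6M-2 or without the mouse as a block, with adjusted p from 0.053 to 0.11, and that of Meg3 also with clusters (adjusted p = 0.0513). Excitatory neurons were above the next glial class by far more, with 3.60 ± 0.15 for Meg3 over microglia (adjusted p = 5.19e-22) and 2.63 ± 0.19 for Mirg over OPCs (adjusted p = 3.32e-14).

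Miat was the exception among the neuronal members. It was highest in excitatory neurons of every library, at 295 ± 20 CPM, and at 109 ± 15.6 CPM in inhibitory neurons. The difference was 1.66 ± 0.10 on the log2 scale (adjusted p = 3.26e-16). OPCs had 79.5 ± 10.7 CPM, below inhibitory neurons by 0.58 ± 0.17 (adjusted p = 0.00532), and oligodendrocytes were lowest at 27.5 ± 2.71 CPM.

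**Figure D5:**
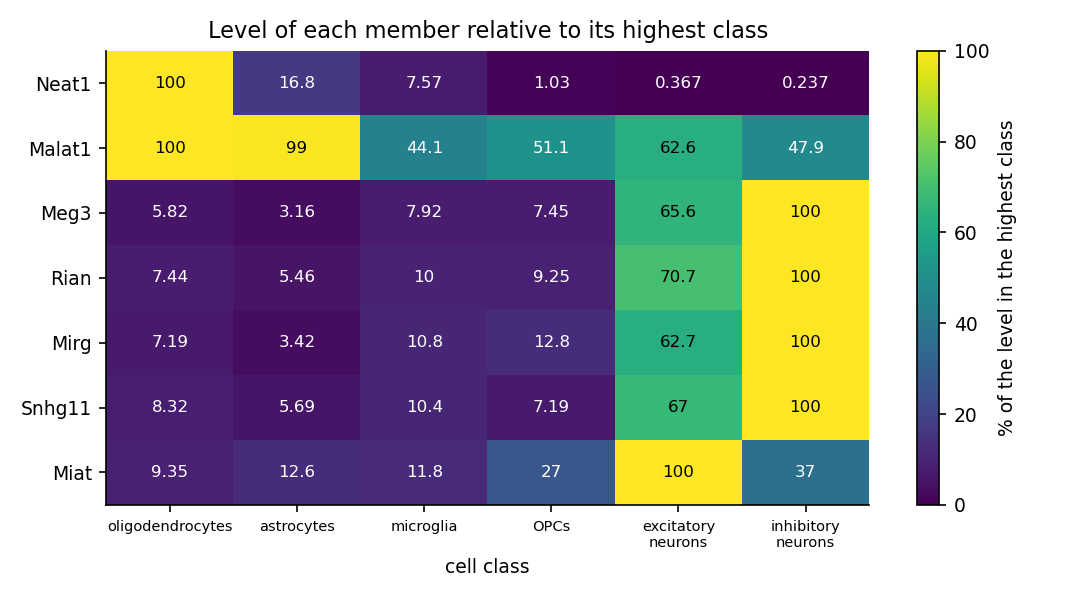
Mean level of each member over the 4 libraries in each cell class, as a percentage of its level in its highest class. Neat1 is at 16.8% in astrocytes and 7.57% in microglia, Malat1 stays at 44.1% or more in every class, and Meg3, Rian, Mirg and Snhg11 are at 62.7% or more in excitatory neurons and at 12.8% or less in glia.

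Over the 24 class sums, Meg3 correlated with Rian at 0.984 and with Mirg at 0.907 (Pearson's r of log2(CPM + 1)), and with Snhg11, which is on another chromosome, at 0.981. Neat1 correlated with Meg3 at −0.799 and with Malat1 at 0.653. These values are set mainly by the contrasts between classes and are given as a description. Of the 7 genes listed for the Dlk1-Dio3 region, 5 were tested between excitatory neurons and oligodendrocytes and all 5 were higher in neurons, with a median of 3.39 on the log2 scale, where 36.8% of all genes were higher. They include Rtl1, a paternally expressed gene of the region, at 3.61 ± 0.21 (adjusted p = 1.25e-17).

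Neuronal RNA was present in the glial classes, and the low levels of the neuronal members there are given beside it. In oligodendrocytes the summed excitatory markers (a list of 6 such as Slc17a7, the vesicular glutamate transporter, and Tbr1, a transcription factor of cortical neurons, all 6 detected) were at 5.98%, 9.99%, 9.51% and 12.2% of their level in excitatory neurons of the same library. Meg3 was at 7.33%, 7.41%, 9.99% and 10.9% and Rian at 7.57%, 8.16%, 12.2% and 14.1%. In microglia the markers were at 10.0%, 12.8%, 12.2% and 15.6%, and Meg3 at 8.68%, 12.5%, 14.2% and 13.5%. The values did not follow each other in every class. In OPCs the markers were at 5.03%, 5.30%, 3.08% and 8.87% and Meg3 at 12.1%, 11.5%, 10.4% and 11.4%, and in astrocytes the markers were at 4.47%, 10.2%, 7.09% and 7.74% and Meg3 at 4.51%, 3.75%, 6.11% and 4.90%. The part of neuronal RNA in these levels was not tested, and the glial levels of the 4 members are not read as expression in glia. In astrocytes the order also turned with the way nuclei were placed: Meg3 was lower in astrocytes than in oligodendrocytes by 1.22 ± 0.17 on the log2 scale with the marker gate (adjusted p = 2.18e-07) and higher by 1.26 with clusters.

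Beside that, several of these members were higher at 6 months in oligodendrocytes and microglia. In oligodendrocytes Meg3 was at 657 and 543 CPM at 3 months and 785 and 873 CPM at 6 months. Rian was at 42.7 and 49.0 CPM against 72.1 and 82.6 CPM. In microglia Meg3 was at 778 and 917 CPM against 1113 and 1083 CPM. The ages did not overlap in these 3 cases, as for 25% of all genes in oligodendrocytes and 21.1% in microglia. None of these cases passed the test: the fitted differences were 0.38 ± 0.18 (adjusted p = 0.676), 0.68 ± 0.19 (0.313) and 0.35 ± 0.16 (0.6). OPCs did not share this, since Meg3 and Rian overlapped between the ages there. Snhg11 was lower at 6 months in OPCs without overlap, as were 16.9% of all genes, at −0.31 ± 0.18 (adjusted p = 0.966).

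In neurons themselves, where these RNAs were abundant, no age difference passed. Mirg in excitatory neurons was at 123 and 135 CPM at 3 months and at 103 and 106 CPM at 6 months, lower without overlap, as were 21.2% of all genes there. Its fitted difference was −0.33 ± 0.13 (adjusted p = 0.882). In inhibitory neurons Mirg was also lower without overlap, as were 18.4% of genes, with a fitted difference of −0.17 ± 0.14 (adjusted p = 0.989). Meg3, Rian, Snhg11 and Miat overlapped between the ages in both neuronal classes, with adjusted p from 0.887 to 0.997.

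Over all classes, 32 of the 36 combinations of the 6 members other than Neat1 with a class could be tested, and the 4 others (Mirg in OPCs, and Miat, Rian and Mirg in astrocytes) had too few counts. The astrocyte difference of Malat1 was the 1 call by edgeR. At an unadjusted p under 0.05 there were 6, and DESeq2 called 0 of 35. The ages were apart in the higher direction in 8 of 36 combinations and in the lower direction in 8, and overlapped in 20, where 12.5% to 25% of all genes were apart in a given class and direction. Age by class passed for none of the 6 members by edgeR, with adjusted p from 0.567 to 1.00 and 1 unadjusted p under 0.05, that of Rian (0.0433), where 0.664% of all genes passed. DESeq2 was not run for that test.

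Other long noncoding RNAs, from a list of 20 such as Kcnq1ot1, Tug1 and Snhg14, did not pass between the ages in any class by edgeR. There were 9 of 101 tests at an unadjusted p under 0.05, and DESeq2 called 1, Pvt1 in oligodendrocytes, named after its values were seen. The median log2 difference was above that of all genes in each class, from 0.05 in OPCs to 0.31 in astrocytes. Between DAM-gated and other microglia 2 of 16 passed by edgeR, where 6.0% of all genes did, and 0 by DESeq2. Dleu2 was lower in DAM-gated nuclei by 0.40 (SE 0.09, adjusted p = 0.00575) and Pvt1, a noncoding RNA beside Myc, was higher by 0.51 (SE 0.15, adjusted p = 0.0442).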

How the data were processed

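Cortical nuclei of 4 mice (GCLC-KO), 2 at 3 months and 2 at 6 months, were profiled with 10x 3′ single-nucleus RNA-seq. The deposited values are raw UMI counts per gene and nucleus, which the authors made with cellranger 7.0.0 per the file headers against mm10 per the submitters' processing notes. The depth was 59262228 to 65894316 UMIs a library, and intervals would cover counting error only. No column was left unmapped (0).

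Nuclei were placed by marker genes, at thresholds set after clusters had been looked at, in classes (n is the number of libraries), and UMIs were summed per class and library. Scrublet marked 3.88% to 8.78% of nuclei as doublets, which were left in and removed as an alternative. Norad and Clec7a, although listed, were not analysed here. Values of some single list genes are not reported here. The members and lists were chosen with earlier results of these data known. Genes of the lists were named by the smallest adjusted p among those that passed, at most 4 a list and comparison, and genes like Neat1 as the 5 highest correlations.

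Ages (2 against 2), classes and the DAM gate (both with the mouse as a block) were tested with edgeR 4.0.16 (quasi-likelihood) in R 4.3.3, with DESeq2 1.42.0 as an alternative, and p-values were adjusted over all genes with 0.05 as threshold. The fits were tested on simulated counts with the same spread for every gene. That run gives no error rates for the spread between these mice. Replicates of an age differ in mouse and in labelled batch, so p-values of the ages without a block measure the spread over both together. With the mouse as a block, p-values of classes and the DAM gate measure how far the difference within a mouse varied between mice. The labels give replicates 1 and 2 of both ages batch 1 and 2, which pairs them. The correlation of their deviations was −0.114 in excitatory neurons and −0.028 to 0.0432 in the other classes. Alternatives were clusters in place of the gate, nuclei without oligodendrocyte transcripts, all barcodes, other scalings, no filter on low counts, the block and leaving out each library. Loci were read from GENCODE M21, which held 32158 of 32285 gene identifiers.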

Additional observations from a re-analysis of the deposited data

How the results depend on the processing

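Neat1's log2 ratio of 6 to 3 months was 0.55 in oligodendrocytes and 0.71 in microglia. It moved to 0.52 in microglia and from 0.20 to 0.49 in excitatory neurons in nuclei without oligodendrocyte transcripts, and from −0.16 to 0.22 in astrocytes with clusters. Without 1 library at a time it ranged from 0.46 to 0.64 in oligodendrocytes, 0.585 to 0.82 in microglia, 0.33 to 1.19 in OPCs, −0.35 to 0.01 in astrocytes, −0.03 to 0.41 in excitatory and 0.98 to 1.66 in inhibitory neurons. The cause of these moves was not tested.

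Of the other 6 members, 1 was called between the ages in oligodendrocytes without the filter on low counts, where 160 of 21223 genes were. With the replicate block 1 each was called in oligodendrocytes and OPCs, where 102 of 12278 and 9 of 6527 genes were. In astrocytes 0 were called with clusters, without Scrublet doublets, with DESeq2, without the filter and with the block. Fits without 1 library leave 1 library in an age, so the number of members called in them is not given. Age by class stayed at 0 in the alternatives run.

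The number of genes called between the ages varied most. In excitatory neurons (0) it was 1 with clusters, without the filter and with the block, 32 with DESeq2 and 7 to 1146 without 1 library. The replicate numbers crossed, tried after seeing the data, gave 6. In inhibitory neurons (0) it was 2 with DESeq2 and with the block, 35 without the filter and 0 to 913 without 1 library. In oligodendrocytes (13) it was 3 with clusters, 29 with DESeq2, 160 without the filter, 102 with the block and 29 to 965 without 1 library. In OPCs (0) it was 1 with clusters and in nuclei without oligodendrocyte transcripts, 9 without the filter and with the block, and 0 to 57 without 1 library. In astrocytes (2) it was 0 with clusters, without Scrublet doublets and with DESeq2, 1 with library sizes that leave out the members and with the block, 5 without the filter and 1 to 16 without 1 library. In microglia (14) it was 31 without Scrublet doublets, 136 without the filter, 58 with the block and 11 to 843 without 1 library. The highest of each range was reached without 3M-2. As these fits leave 1 library in an age, nothing is read from their numbers of calls.

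Between classes, astrocytes were left out in nuclei without oligodendrocyte transcripts, for too few nuclei (17 in 6M-1), so fewer pairs were run. Counts of pairs called there, 7 for Meg3 and 7 for Mirg, are not comparable with the 12 and 11 of all 15 pairs. Pairs called went from 8 to 13 for Rian with clusters. Without 1 library they were 14 to 15 for Neat1, 10 to 12 for Malat1, 11 to 12 for Meg3 and Miat, 9 to 12 for Mirg, 10 to 13 for Snhg11 and 8 for Rian. With clusters, 3 log2 differences against astrocytes turned: Meg3 in oligodendrocytes (−1.26), Rian in oligodendrocytes (−1.28) and Snhg11 in OPCs (−1.07). Between DAM-gated and other microglia 1 member was called with DESeq2 and without the replicate block, and 1 to 2 without 1 library. Of the single values of named members, 367 kept direction and side of the threshold, 20 lost the call, 19 gained it and 3 turned. Astrocyte age tests in nuclei without oligodendrocyte transcripts were not run, for too few nuclei.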

Other observations

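Nuclei with markers of vascular cells were too few for a test, at 9, 10, 25 and 30 a library. Neat1 was at 219, 435, 333 and 491 CPM in them, on 4, 6, 12 and 27 UMIs. Malat1 made up 18.9%, 16.4%, 16.4% and 14.99% of their UMIs. Mixed nuclei, with markers of more than 1 class, held Neat1 at 82.4, 67.4, 150 and 153 CPM.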
